A study of Mus musculus with 11 samples.

Results

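The interval described here is a 390 kb stretch of mouse chromosome 1, chr1:123080001-123470000 in mm9, that lies between a pair of insulation boundaries and holds the genes Insig2, Ccdc93 and Ddx18. Its members are the 780 bin pairs with both 10 kb bins in the interval (39 bins), out of the 88410 bin pairs of each capture Hi-C map. The interval was chosen from boundaries found in these same maps, so its separation from its surroundings and its average contact level are descriptions, and no test is attached to them. In what follows the left is the side of lower coordinates.

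Capture Hi-C cuts crosslinked chromatin with a restriction enzyme (here DpnII), religates it and enriches the captured region, so that each read pair counts as a contact between a pair of loci. The tissues were dissected at embryonic day 9.5 and fixed after dissociation. Every library came from mice listed under the strain c57bl6.J X 129S6.sv: 3 libraries each were made from wild-type midhindbrain boundary, forebrain and forelimb, and 2 from the forelimb of mutants with a stop cassette insertion. The labels do not give where the cassette was inserted or how many embryos entered a library, and the tag CD1 stands in the titles of wild-type forelimb libraries and in no others. The series title names the long non-coding RNA Maenli and the limb patterning gene En1, so the comparisons ask whether folding differs between limb and brain, and between mutant and wild-type limb. The authors merged the libraries of each group into 1 map, so replicate error is unknown throughout, intervals cover counting error only, and every test compares the reads of a pair of merged maps, not the conditions.

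Mammalian chromosomes are folded into domains within which loci meet more often than across their borders. Cohesin is thought to form them by extruding loops until it meets bound CTCF, and a contact map then shows domain edges, spots where a pair of anchors meet, and stripes. INSIG2 is a membrane protein of the endoplasmic reticulum that holds back the SCAP-SREBP complex and so restrains cholesterol synthesis. CCDC93 belongs to the CCC complex, which sorts membrane proteins from endosomes, and DDX18 is a nucleolar DEAD-box RNA helicase of ribosome production. In the gene order of RefSeq (assembly GRCm38.p6, used for names and neighbours only) they follow each other as Insig2, Ccdc93 and Ddx18. Htr5b, a serotonin receptor gene named here because it lies between Ccdc93 and Ddx18, brings the protein-coding genes from Insig2 to Ddx18 to 4. En1 precedes Insig2 in that order. No mm9 gene positions were used, so no bin below is assigned to a gene.

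Promoter windows from RefSeq (GRCm38.p6; 250 bases before to 50 after a transcript start) were found for Insig2, with 3 starts, and Ddx18, with 1. They are shown because they are the promoter sequences at hand for genes of the interval and because CTCF sites often mark domain edges. The letters searched were AGGGGGCGC, part of the CTCF consensus, on both strands, chosen after the sequences had been seen. Capitals mark a match, and both sequences are read 5′ to 3′ on the gene's minus strand.
Ddx18: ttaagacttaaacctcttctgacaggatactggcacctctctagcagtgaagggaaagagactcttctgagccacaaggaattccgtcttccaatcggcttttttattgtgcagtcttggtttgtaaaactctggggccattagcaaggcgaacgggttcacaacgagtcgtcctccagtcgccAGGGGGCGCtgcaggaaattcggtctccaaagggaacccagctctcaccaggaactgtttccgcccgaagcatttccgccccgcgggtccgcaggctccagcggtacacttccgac
Insig2: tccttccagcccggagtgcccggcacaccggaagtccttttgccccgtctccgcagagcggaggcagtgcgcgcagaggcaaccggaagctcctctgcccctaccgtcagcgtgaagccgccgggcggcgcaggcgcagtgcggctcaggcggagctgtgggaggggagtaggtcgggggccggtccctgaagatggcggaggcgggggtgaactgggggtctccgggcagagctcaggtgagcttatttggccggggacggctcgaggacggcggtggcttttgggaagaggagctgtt
The Ddx18 window held the letters at bases 185 to 193, and none of the 3 Insig2 windows held them. The Insig2 window printed is the start with the highest GC content (69.3%, with 28 CG dinucleotides), against 54.3% and 17 for Ddx18. Of all 32851 promoter windows in the table, 409 (1.25%) held the letters. A match in sequence is a description of these windows and does not show that a protein is bound there.

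The raw maps held from 7662227 (stop-cassette forelimb) to 9523316 contacts (midhindbrain boundary), of which 6.17% to 6.79% joined 2 bins of the interval. No bin pair of the interval was empty in any map. At distances of 30 kb or more the interval has 666 bin pairs, with 216252 contacts in midhindbrain boundary, 210440 in forebrain, 220425 in wild-type and 175715 in stop-cassette forelimb. Values below refer to these distances, except bin totals, balancing factors and insulation squares, which also take in closer bin pairs. The median bin pair had from 211 to 259.5 contacts over the 4 maps. The thinnest bin was 123100001-123110000 in all of them, with 10882 to 14006 contacts where the median bin of the interval had 34853 to 43236.

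Values are given as observed/expected: the Knight-Ruiz (KR) balanced signal of a bin pair divided by the mean signal of all bin pairs of the captured region at the same distance in the same map. For a set of bin pairs, here also called its mean, the summed signal was divided by the summed distance means, so close pairs weigh most. Inside the interval the mean observed/expected was 0.959 in wild-type (95% counting interval 0.955 to 0.964) and 0.978 in stop-cassette forelimb (0.973 to 0.983). It was 0.952 in forebrain (0.947 to 0.956) and 0.926 in midhindbrain boundary (0.921 to 0.930). The interval thus contacted itself slightly less than the region's average at these distances. The same mean was 1.05 to 1.21 in the other 5 domains between boundaries of the wild-type forelimb map, among them 1.08 to 1.17 in chr1:120980001-121360000, which at 38 bins is closest in size. Without balancing, the means of the interval moved above 1, to 1.04 in midhindbrain boundary, 1.01 in forebrain, 1.03 in wild-type and 1.09 in stop-cassette forelimb, and were still the lowest of the 6 domains in each map.

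What marks the interval as a unit is the drop at its sides. Contacts between its leftmost 130 kb and the 130 kb beyond its left edge were at 0.644 of expectation in midhindbrain boundary, 0.618 in forebrain, 0.670 in wild-type and 0.699 in stop-cassette forelimb. Across the right edge, the corresponding values were 0.606 in midhindbrain boundary, 0.580 in forebrain, 0.611 in wild-type and 0.627 in stop-cassette forelimb. The right boundary was called at 123470001 in every map, and the left one at 123080001 except in forebrain (123090001), where the first bin thus lies outside. The edges of the interval did not meet often. The corner, formed by the first 50 kb with the last 50 kb, was at 0.702 in midhindbrain boundary (0.668 to 0.736), 0.639 in forebrain (0.607 to 0.670), 0.714 in wild-type (0.680 to 0.749) and 0.793 in stop-cassette forelimb (0.753 to 0.833).

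**Figure D1:**
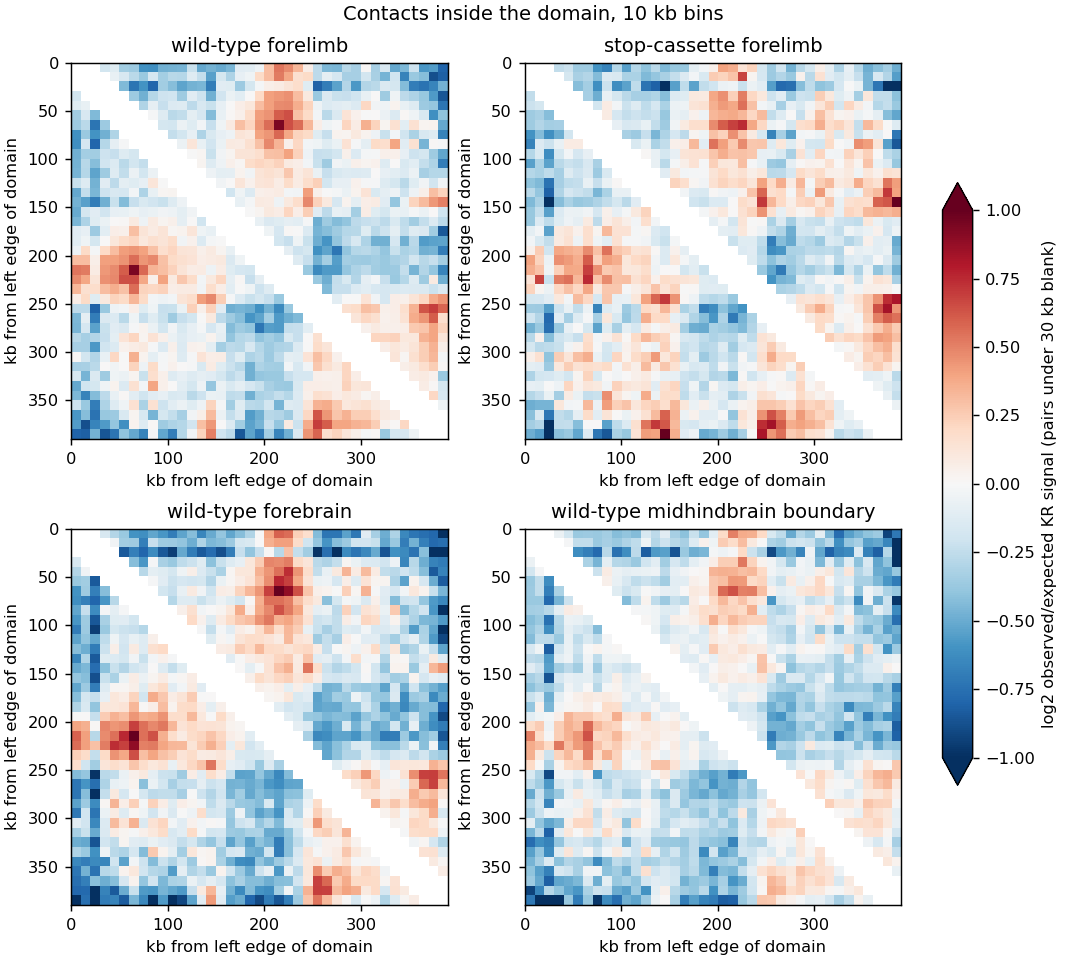
Log2 observed/expected KR signal of each pair of 10 kb bins inside the interval, in 4 merged maps; both axes give kb from the left edge, and pairs under 30 kb apart are blank. A spot where bins at 65 and 215 kb meet, a second spot near 255 and 375 kb and a dip between the bins on either side of 240 kb recur in all maps, while the spot at 145 and 385 kb is strongest in stop-cassette forelimb (2.22 against 1.00 to 1.42).

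Contacts inside the interval varied from pair to pair, as they did in the other domains. The standard deviation of log2 observed/expected was 0.269 in midhindbrain boundary, 0.351 in forebrain, 0.279 in wild-type and 0.288 in stop-cassette forelimb. In the other 5 domains it was 0.254 to 0.555, 0.272 to 0.630, 0.264 to 0.569 and 0.301 to 0.528 in the same order. How many of their bin pairs pass the limits of 1.25 and 0.8 used below was not counted. Over the 666 bin pairs, observed/expected ran from 0.405 to 1.56 in midhindbrain boundary, from 0.363 to 2.13 in forebrain, from 0.544 to 1.92 in wild-type forelimb and from 0.429 to 2.22 in the mutant forelimb. Above 1.25 lay 19 bin pairs in midhindbrain boundary, 62 in forebrain, 49 in wild-type and 62 in stop-cassette forelimb. The 13 that did so in all 4 maps at once fell into 2 places. Of these, 10 lay between a left anchor zone (bins starting at 123080001 to 123140001) and a central one (123280001 to 123310001), and 3 joined 123330001 and 123340001 with 123440001 and 123450001. Another 55 bin pairs lay below 0.8 in all 4 maps. Of these, 37 spanned the bin edge 123320001, as did 357 of all 666 bin pairs, and 38 involved the first 3 bins or the last bin. Across the 666 bin pairs, log2 observed/expected correlated at r = 0.856 between wild-type forelimb and forebrain, 0.819 between wild-type forelimb and midhindbrain boundary, and 0.859 between the brain maps. Stop-cassette forelimb correlated at 0.774 with wild-type forelimb, 0.747 with forebrain and 0.694 with midhindbrain boundary. In the other 5 domains the forelimb maps correlated at 0.787 to 0.952, so their value here was below all of these, while each of the remaining 5 values lay within the range of the other domains for the same maps. These are descriptions over bin pairs that share bins and libraries, and the stop-cassette map has the fewest contacts.

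The strongest spot joined 123140001-123150000 to 123290001-123300000, 150 kb apart. It held 381 contacts in midhindbrain boundary, 518 in forebrain, 445 in wild-type and 294 in stop-cassette forelimb. Observed/expected was 1.56 in midhindbrain boundary (1.40 to 1.72), 2.13 in forebrain (1.95 to 2.33), 1.92 in wild-type (1.74 to 2.10) and 1.61 in stop-cassette forelimb (1.43 to 1.80). Forebrain and wild-type forelimb were thus the high maps and their intervals overlap, as do those of the remaining pair, whereas forebrain lies clear of both. Summed over the 3 by 3 bins around it, the spot was at 1.33, 1.62, 1.5 and 1.38 in the same order. The right-hand anchor of this spot also met other bins of the left part. With the first bin, 123080001-123090000, it was at 1.42, 1.5, 1.45 and 1.28, and with 123170001-123180000 at 1.25, 1.28, 1.23 and 1.22 in the same order. This bin thus met several bins of the left part above expectation in all maps, as a stripe does. The neighbouring pair of 123110001-123120000 with 123300001-123310000 ranged only from 1.37 to 1.44.

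The second spot lay in the right part, between 123330001-123340000 and 123450001-123460000, 120 kb apart. It held 298 contacts in midhindbrain boundary, 363 in forebrain, 398 in wild-type and 312 in stop-cassette forelimb. Observed/expected was 1.61 in both wild-type forelimb (1.46 to 1.78) and forebrain (1.45 to 1.79), 1.29 in midhindbrain boundary (1.15 to 1.44) and 1.78 in stop-cassette forelimb (1.59 to 1.99). Midhindbrain boundary was again low, here below the counting intervals of all other maps. A further named pair, 123220001-123230000 with 123320001-123330000, again had stop-cassette forelimb highest and midhindbrain boundary lowest, at 1.22 in midhindbrain boundary, 1.45 in forebrain, 1.39 in wild-type and 1.63 in stop-cassette forelimb.

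The lowest pairs by the same ranking all involved the outer bins or the thin bin. The pair of 123090001-123100000 with the last bin, 123460001-123470000, was at 0.473 in midhindbrain boundary, 0.594 in forebrain, 0.569 in wild-type and 0.682 in stop-cassette forelimb. That of 123150001-123160000 with the last bin was at 0.510 to 0.639 over the maps. The pairs of 123100001-123110000 with 123150001-123160000 and with 123340001-123350000 were at 0.577 to 0.660 and 0.583 to 0.670. That bin had the fewest contacts of the interval and the smallest balancing factor (0.314 to 0.368). These 2 pairs held 99 to 109 and 28 to 41 contacts over the maps, and the part of coverage in their low values was not tested.

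**Figure D2:**
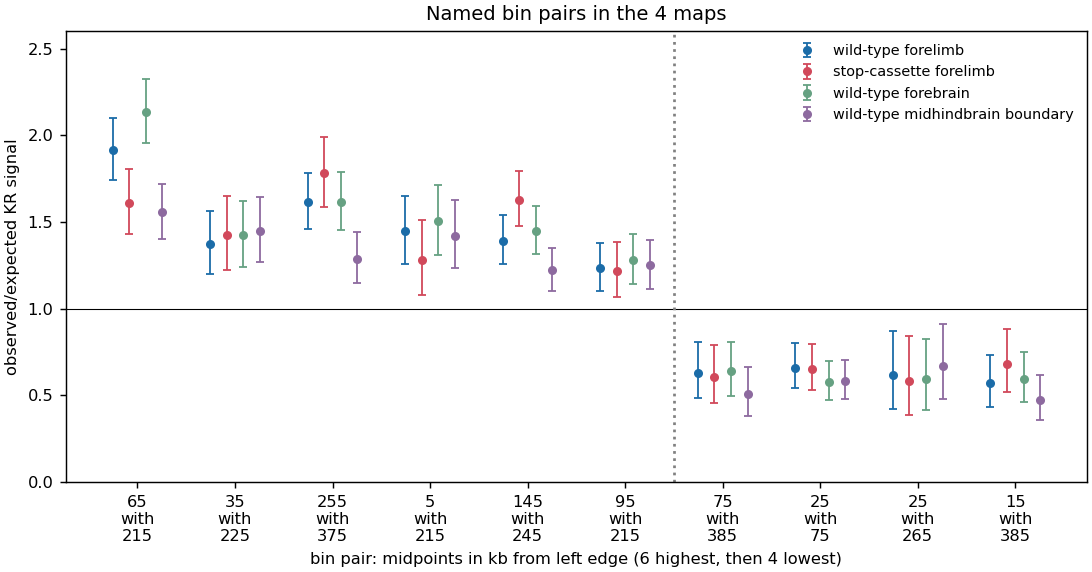
Observed/expected KR signal of the 6 highest and 4 lowest bin pairs, ranked by their least favourable map; points are merged maps, bars are 95% counting intervals, and labels give the bin midpoints in kb from the left edge. The highest pair (65 with 215 kb) ranges from 1.56 in midhindbrain boundary to 2.13 in forebrain, and the low pairs lie between 0.473 and 0.682 in all maps.

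Summed per bin over its partners in the interval, observed/expected spread less than between single bin pairs. The highest bins were 123380001-123390000, at 1.01 in midhindbrain boundary, 1.02 in forebrain, 1.03 in wild-type and 1.07 in stop-cassette forelimb, and 123450001-123460000, at 0.950, 0.996, 1.06 and 1.10 in that order. The lowest were the thin bin 123100001-123110000, at 0.707, 0.645, 0.761 and 0.746, and the first bin of the interval, at 0.856, 0.791, 0.838 and 0.840. The next thinnest bin, 123160001-123170000, had 13592 to 18019 contacts and was at 0.976, 1.02, 0.982 and 1.00. The last bin was at 0.846 in midhindbrain boundary, 0.871 in forebrain, 0.914 in wild-type and 1.00 in stop-cassette forelimb, which was the high map for this bin.

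Contact across the bin edges inside the interval was uneven. The rule that gave the boundaries (200 kb square) called no edge between those at its sides in any map. Dips inside the other domains were not measured. A 50 kb square was moved along the bin edges, and the log2 of its observed/expected measured how much contact crossed each edge. The square holds all bin pairs across the edge, those under 30 kb apart included. In all 4 maps the lowest local minimum lay at the edge 123320001, 240 kb from the left side, at -0.33 in midhindbrain boundary (-0.35 to -0.31), -0.35 in forebrain (-0.38 to -0.33), -0.34 in wild-type (-0.36 to -0.31) and -0.35 in stop-cassette forelimb (-0.37 to -0.32). These counting intervals overlap between all maps. In wild-type forelimb and forebrain, the first edge measured, 123130001, was lower by a little, at -0.35 and -0.37, with intervals that overlap those at 123320001. The place depended on balancing and scale. With a 100 kb square the lowest edge was 123330001 in all maps, and with raw counts the lowest was a weaker dip at 123300001 (-0.16 to -0.28) except in stop-cassette forelimb (-0.18 at 123170001). To the right of the dip, the score rose to its highest values in every map, from 0.10 in midhindbrain boundary to 0.17 in forebrain.

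At wider range the maps separated at this edge. The log2 score of a 200 kb square, relative to the region's mean, was -0.30 in midhindbrain boundary, -0.30 in forebrain, -0.22 in wild-type and -0.08 in stop-cassette forelimb. At the boundaries called on either side of the interval, the same score lay lower, between -0.44 and -0.82 over the maps. This score is not divided by distance means, and its square reaches past the right edge of the interval, so it includes contacts across that edge. The 15 bins to the right of the edge contacted each other at 1.10 of expectation in wild-type forelimb, forebrain and stop-cassette forelimb and at 1.04 in midhindbrain boundary. The 24 bins to its left did so at 0.951 in midhindbrain boundary, 0.989 in forebrain, 0.970 in wild-type and 0.960 in stop-cassette forelimb. Contacts across it were lower in each map, at 0.836 in midhindbrain boundary (0.829 to 0.842), 0.833 in forebrain (0.827 to 0.840), 0.875 in wild-type (0.869 to 0.882) and 0.938 in stop-cassette forelimb (0.930 to 0.945). At 30 to 100 kb alone, contacts across the edge were at 0.786 to 0.833 and those on its right at 1.03 to 1.08. The edge was picked from these values, so they carry no test.

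**Figure D3:**
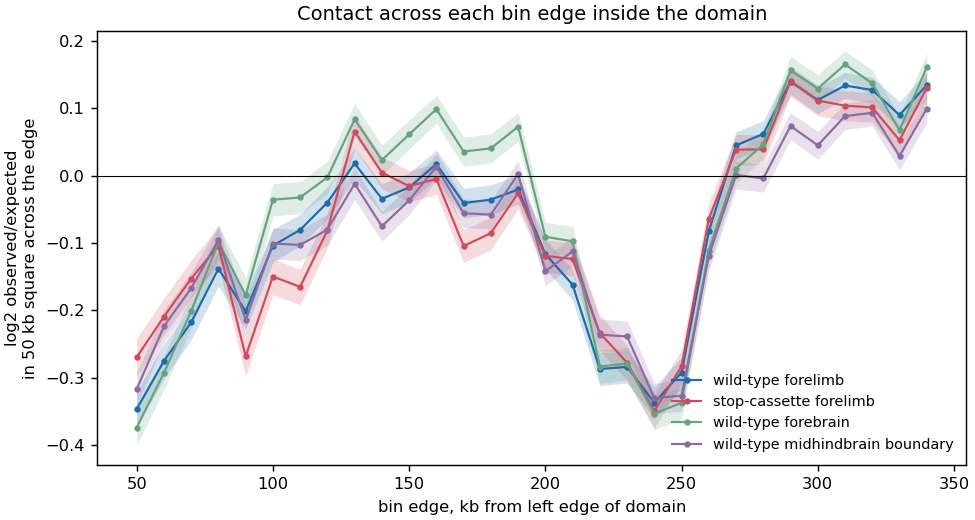
Log2 observed/expected in a 50 kb square across each bin edge, bin pairs under 30 kb apart included, against the position of the edge in kb from the left side. Lines are 4 merged maps and bands are 95% counting intervals. All lines dip at 240 kb, to between -0.35 and -0.33, and peak to its right.

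Distance within the interval mattered as well. At 30 to 50 kb the 4 maps spanned only 0.938 to 0.957 of expectation, with forebrain (0.950 to 0.965) above midhindbrain boundary (0.932 to 0.947). From 110 to 200 kb, midhindbrain boundary was at 0.938 (0.930 to 0.946), forebrain at 0.981 (0.972 to 0.989), wild-type forelimb at 0.999 (0.990 to 1.01) and stop-cassette forelimb at 1.04 (1.03 to 1.05). From 210 to 300 kb the values were 0.893, 0.896, 0.960 and 1.03 in the same order, and at 310 to 380 kb they were 0.691, 0.666, 0.735 and 0.811. The stop-cassette map was thus the highest beyond 110 kb and forelimb the highest wild-type map, with intervals that do not overlap between the forelimb maps.

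Single bin pairs were then compared between maps with two-sided exact binomial tests on raw counts, the expected share being set by distance and balancing factors, over all bin pairs of the region 30 kb to 1 Mb apart with at least 20 contacts. All 666 bin pairs of the interval were tested in each comparison. With a 2-fold difference and a Benjamini-Hochberg adjusted p under 0.05 required, 0 were called in any of the 4 comparisons. Over the whole region this rule called 0.0282% of bin pairs for stop-cassette against wild-type forelimb, 0.0198% for wild-type forelimb against forebrain, 0.0621% for wild-type forelimb against midhindbrain boundary and 0.0113% for midhindbrain boundary against forebrain. At an unadjusted p under 0.05, 79, 62, 65 and 77 of the 666 passed in that order, or 11.9%, 9.31%, 9.76% and 11.6%, against 9.45%, 8.97%, 10.3% and 7.21% over the region. With 1.5-fold required, 2, 0, 0 and 1 bin pairs of the interval passed, against 0.0508%, 0.147%, 0.378% and 0.108% over the region, and in 20 kb bins 0 passed at 2-fold, against 0.111%, 0.0998%, 0.0111% and 0.0111%. Differences that passed the adjusted p at any fold are given next.

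Midhindbrain boundary fell below forebrain at both spots, at the second in part of the alternatives only. At the strongest spot it had 381 contacts against 518, a log2 ratio of -0.46 (SE 0.097, exact binomial adjusted p = 0.0033). This was the only bin pair of the interval that kept an adjusted p under 0.05 with the variance inflated to that over the region. Over the alternatives its adjusted p (exact binomial or inflated) ran from 0.0029 to 0.046, the highest being with the inflated variance. In this comparison the ratio of variance to counting variance was higher inside the interval (1.701) than over the region (1.315). Whether the pair passes with the variance inflated to the value inside was not tested. The pair of 123330001-123340000 with 123440001-123450000, at the second spot, had 497 against 636 contacts (log2 ratio -0.36, SE 0.086, exact binomial adjusted p = 0.024; 0.021 to 0.19 over the alternatives). The third pair to pass, 123150001-123160000 with 123330001-123340000, had 126 against 203 (log2 ratio -0.68, SE 0.16, exact binomial adjusted p = 0.021; 0.018 to 0.16). The second and the third both lost significance with the inflated variance, and the second also without balancing (exact binomial adjusted p = 0.054). The pair of lowest p among those higher in midhindbrain boundary, 123090001-123100000 with 123200001-123210000, did not pass, with 230 contacts against 165 (log2 ratio 0.44, SE 0.15, exact binomial adjusted p = 0.27; 0.095 to 0.75 over the alternatives). The 3 of 666 that passed (0.450%) stand against 0.224% of bin pairs over the region at any fold. At an unadjusted p under 0.05, 57 of the 666 bin pairs were lower and 20 higher in midhindbrain boundary (8.56% and 3.0%), where the region gave 3.63% and 3.58%.

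Stop-cassette forelimb exceeded wild-type forelimb at 2 pairs of the last bin. With 123220001-123230000, 240 kb away, the last bin had 115 contacts in midhindbrain boundary, 151 in forebrain, 148 in wild-type and 207 in stop-cassette forelimb. Observed/expected was 1.00 (0.826 to 1.2), 1.34 (1.14 to 1.58), 1.42 (1.2 to 1.67) and 2.22 (1.93 to 2.54) in the same order, so that the stop-cassette map stood above the others and midhindbrain boundary was at expectation. The log2 ratio of the forelimb maps was 0.64 (SE 0.16, exact binomial adjusted p = 0.048; 3.2e-06 to 0.85 over the alternatives). With 123250001-123260000 the last bin had 139 against 98 contacts (log2 ratio 0.79, SE 0.19, exact binomial adjusted p = 0.048; 0.00022 to 0.85 over the alternatives). Observed/expected of this pair was 0.688 in midhindbrain boundary, 0.711 in forebrain, 0.557 in wild-type and 0.963 in stop-cassette forelimb. No map was thus above expectation there, and wild-type forelimb was the lowest. Both lost significance with the inflated variance, at an adjusted p of 0.85. At 245 and 255 kb from the left edge the forelimb maps had no single order, and neither pair given here passed. With 123320001-123330000 the last bin was at 1.36 in wild-type (1.22 to 1.51) and 1.76 in stop-cassette forelimb (1.59 to 1.94), and with the adjacent 123330001-123340000 at 1.5 (1.35 to 1.67) and 1.36 (1.2 to 1.53). Among pairs lower in the mutant, the lowest p belonged to 123420001-123430000 with 123450001-123460000, with 618 against 917 contacts (log2 ratio -0.28, SE 0.075, exact binomial adjusted p = 0.11; 0.092 to 0.93 over the alternatives), which did not pass. The 2 of 666 (0.300%) that passed at any fold stand against 0.0762% over the region. At an unadjusted p under 0.05, 59 exceeded and 20 lay below wild-type forelimb (8.86% and 3.0%), against 5.29% and 4.16% over the region.

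**Figure D4:**
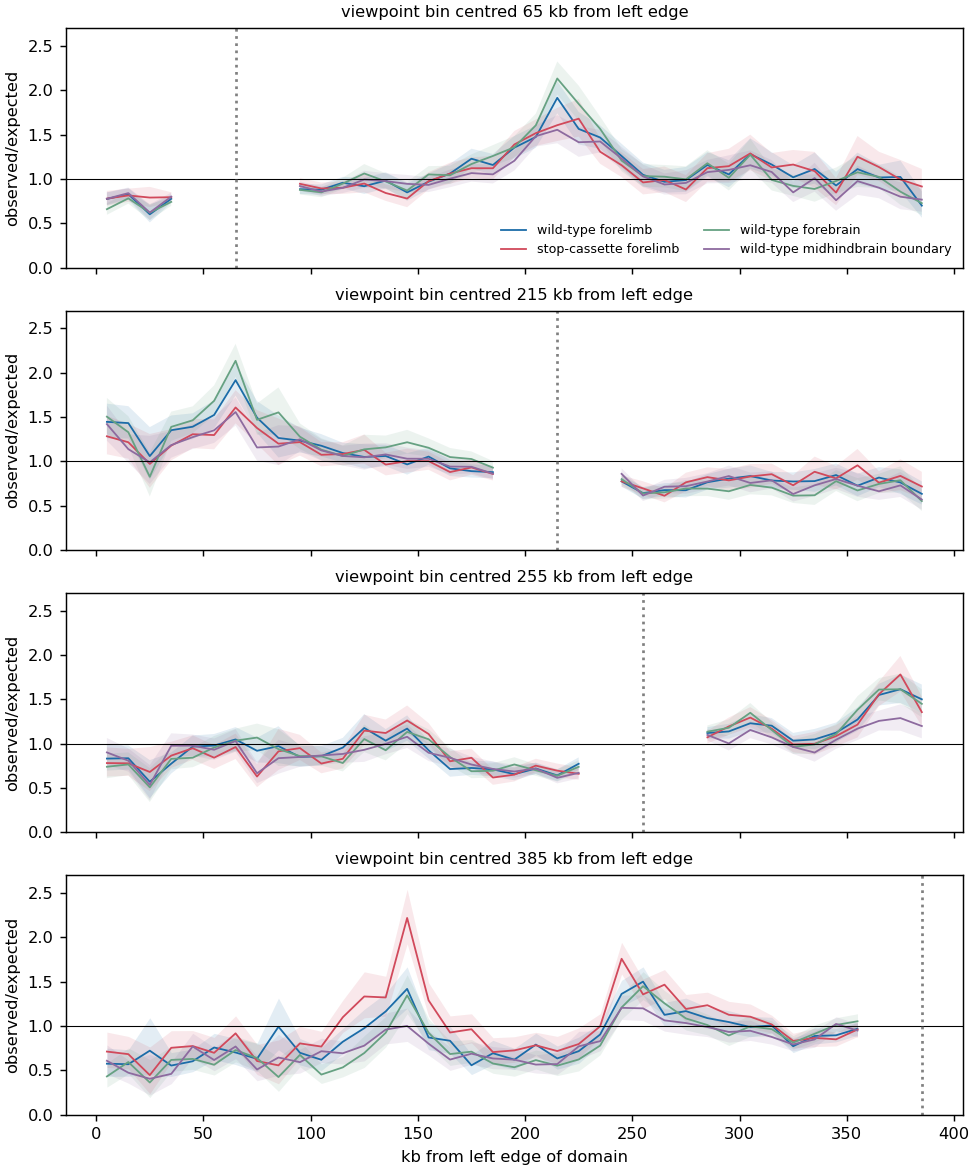
Observed/expected KR signal of 4 viewpoint bins with the other bins of the interval, against kb from the left edge; lines are merged maps, bands are 95% counting intervals, and dotted lines mark the viewpoint. The viewpoint at 385 kb, the last bin, reaches 2.22 at 145 kb and 1.76 at 245 kb in stop-cassette forelimb, above the other 3 maps, but at 255 kb it is at 1.36 there and 1.5 in wild-type forelimb.

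The remaining comparisons gave fewer single differences. Wild-type forelimb exceeded midhindbrain boundary at 123400001-123410000 with 123440001-123450000, with 1294 against 1105 contacts (log2 ratio 0.25, SE 0.059, exact binomial adjusted p = 0.011; 0.0098 to 0.33 over the alternatives). It lost significance with the inflated variance. Of the pairs lower in forelimb, 123300001-123310000 with 123370001-123380000 had the lowest p and did not pass, with 218 against 255 contacts (log2 ratio -0.39, SE 0.13, exact binomial adjusted p = 0.18; 0.16 to 0.88 over the alternatives). The former was the single pair of 666 to pass at any fold (0.150%), against 0.681% over the region, but 52 were higher and 13 lower in forelimb at an unadjusted p under 0.05 (7.81% and 1.95%), where the region gave 4.67% and 5.63%. Between wild-type forelimb and forebrain, 0 of 666 passed at any fold, against 0.381% over the region. Their pair of lowest p, 123120001-123130000 with 123360001-123370000, had 252 contacts in forelimb and 317 in forebrain (log2 ratio -0.44, SE 0.12, exact binomial adjusted p = 0.071; 0.064 to 0.58 over the alternatives). In the other direction, 123130001-123140000 with 123420001-123430000 had 186 against 132 contacts (log2 ratio 0.55, SE 0.16, exact binomial adjusted p = 0.12; 0.11 to 0.70 over the alternatives). At an unadjusted p under 0.05, 39 were higher and 23 lower in forelimb (5.86% and 3.45%), against 4.32% and 4.65% over the region.

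Contacts were finally summed over the left, middle and right 130 kb of the interval, within and between these segments, and each of the 6 blocks was compared between maps (two-sided exact binomial test, adjusted over the 24 block tests). The block that joins the middle to the right segment, most of which spans the internal dip, was at 0.849 in midhindbrain boundary (0.841 to 0.857), 0.862 in forebrain (0.853 to 0.870), 0.901 in wild-type (0.893 to 0.909) and 0.976 in stop-cassette forelimb (0.966 to 0.986). Stop-cassette forelimb exceeded wild-type forelimb here by a log2 ratio of 0.12 (SE 0.0098, adjusted p = 2.5e-31, exact binomial). Wild-type forelimb exceeded forebrain by 0.065 (SE 0.0096, adjusted p = 4.7e-11, exact binomial) and midhindbrain boundary by 0.086 (SE 0.0095, adjusted p = 1.0e-18, exact binomial). These 3 differences kept their direction and passed with the inflated variance, with raw counts and with the interval's own distance means, but their sizes moved. They were 0.18, 0.10 and 0.055 with raw counts, which turns the order of the tissue comparisons, and 0.079, 0.055 and 0.023 with the interval's means. Balanced, they amount to folds of 1.08, 1.05 and 1.06, and with merged maps they cannot be set against the spread of replicates.

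The order in the block of the left with the right segment depended on the expectation used. Against the region's distance means it was at 0.856 in midhindbrain boundary, 0.852 in forebrain, 0.902 in wild-type and 0.969 in stop-cassette forelimb. Stop-cassette exceeded wild-type forelimb by a log2 ratio of 0.11 (SE 0.014, exact binomial adjusted p = 5.9e-14), and with the interval's own distance means the ratio was 0.0032 (exact binomial adjusted p = 0.86). With those means wild-type forelimb turned from higher to lower than forebrain (-0.034, exact binomial adjusted p = 0.017) and midhindbrain boundary (-0.031, exact binomial adjusted p = 0.028). Part of this shift is built in, because 91 of the 169 bin pairs of this block lie at 260 to 380 kb, where the interval has no other bin pairs and the block is divided by its own mean. The right segment with itself was at 1.04 in midhindbrain boundary, 1.09 in forebrain, 1.09 in wild-type and 1.08 in stop-cassette forelimb. Here wild-type forelimb exceeded midhindbrain boundary by 0.071 (SE 0.011, exact binomial adjusted p = 4.4e-10), also under each of those alternatives. The left segment with the middle was at 1.004 in midhindbrain boundary, 1.07 in forebrain, 1.05 in wild-type and 1.03 in stop-cassette forelimb, and midhindbrain boundary lay below forebrain by -0.090 (SE 0.0087, exact binomial adjusted p = 1.4e-23). That call was lost with raw counts (-0.0057, exact binomial adjusted p = 0.57).

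Of the 6 blocks, 4 passed between the forelimb maps (2 higher and 2 lower in stop-cassette), 5 between wild-type forelimb and forebrain (3 higher and 2 lower in forelimb), 4 between wild-type forelimb and midhindbrain boundary (all higher in forelimb) and 5 between the brain maps (1 higher and 4 lower in midhindbrain boundary). The directions depended on balancing, except between wild-type forelimb and forebrain, where no block changed sign. There the tally stayed but its members changed. With raw counts the left segment with itself lost its call (log2 ratio 0.0050, exact binomial adjusted p = 0.69). The right segment with itself gained a call (0.076, exact binomial adjusted p = 1.2e-11). With raw counts, 4 passed between the forelimb maps (all higher in stop-cassette), 5 between wild-type forelimb and forebrain (3 higher), 6 between wild-type forelimb and midhindbrain boundary (3 higher) and 4 between the brain maps (all higher in midhindbrain boundary). How many blocks elsewhere in the region pass with raw counts was not computed. With the region tiled by 10 windows of 39 bins, 61.7%, 65%, 66.7% and 55% of 60 such blocks passed in the same comparisons. With the inflated variance 3, 4, 4 and 4 of the 6 passed, against 56.7%, 55%, 53.3% and 48.3%. Such calls are thus common at this depth, and the median absolute log2 ratio of the interval's blocks, 0.028, 0.041, 0.067 and 0.050, stood beside 0.041, 0.031, 0.035 and 0.032 over all blocks. In comparisons of wild-type forelimb the tag CD1 and the lower library numbers of that group move with the contrast, and their part in the result cannot be told apart from tissue or genotype.

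**Figure D5:**
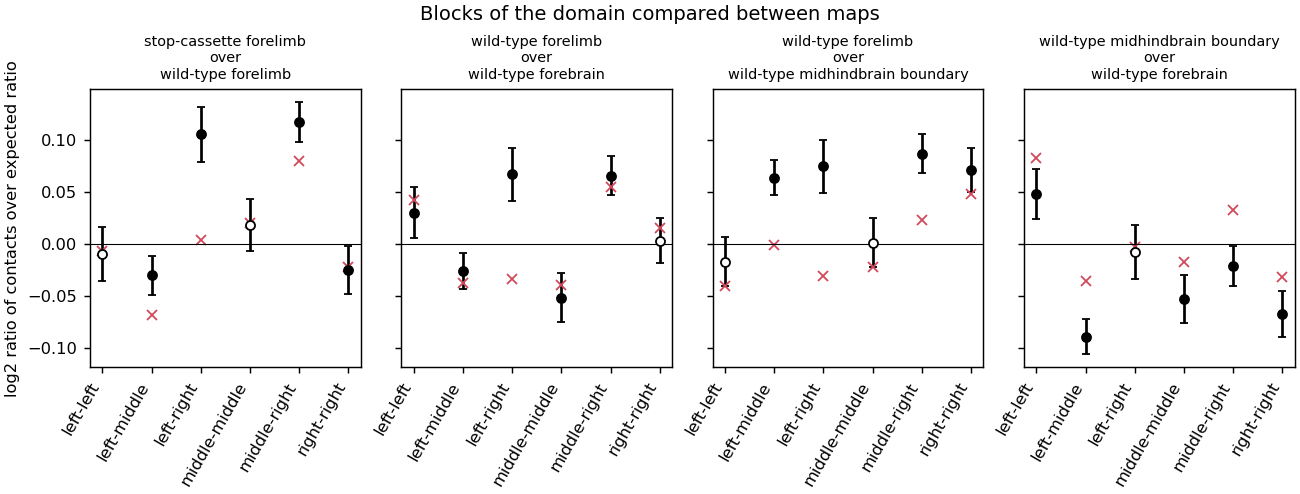
Log2 ratio of contacts between a pair of maps, relative to the ratio expected from distance and balancing, for 6 blocks of the interval (segments of 130 kb, within and between); bars are 95% counting intervals, filled points have an adjusted p under 0.05 (exact binomial), and red crosses use the interval's own distance means. The middle-right block is above 0 in the 3 comparisons with wild-type forelimb, at 0.12, 0.065 and 0.086, and its crosses stay above 0.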

How the data were processed

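Capture Hi-C maps of 4 groups were used, 1 raw and 1 balanced map per group. Per the submitters' processing notes the build was mm9 and Bowtie2 2.3.4.1 and Juicer 1.7.6 were used; per the labels, names of the maps point to HiCUP, merged replicates and mapping quality 30. The deposited raw maps hold counts of contacts per pair of 10 kb bins, where an absent pair was taken as 0. A KR signal fills the deposited balanced maps; checked on the files, it equals the raw count over the product of both bins' factors. Balancing removes differences of whole bins, real ones included.

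Expected values were distance means over the 420 bins. Counting intervals (95%) came from Poisson variance, exact for single pairs. To log2 ratios of bin pairs, 0.5 was added as prior count. Merged maps leave no replicates for a dispersion model. The named pairs were the 6 highest by their lowest map and the 4 lowest by their highest map, skipping neighbours within 2 bins, plus pairs called and those of lowest p per comparison and direction. Single bins were the 2 highest, the 2 lowest and the outermost. Boundaries used a 200 kb square and a depth of 0.2 (log2). Alternatives covered balancing, variance, count minimum, fold, bin size, distance means, edges, squares and segments. Tests were run on data simulated with counting error only, so that run does not cover the extra variance of the real maps. Python 3.11.15, numpy 2.4.6 and scipy 1.17.1 were used. The interval and the settings were chosen with earlier results of these data known. Intervals cover counting error only, since read pairs without molecular identifiers are not independent molecules.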

Additional observations from a re-analysis of the deposited data

How the results depend on the processing

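No paired analysis was possible because the replicates were merged before deposit, and for the same reason leaving out each replicate was not run. Counts of called bin pairs were 0 in all 4 comparisons with raw counts, inflated variance, at least 50 contacts, no count minimum or 20 kb bins (the last without bin 39). At 1.5-fold they were 2 between the forelimb maps, 1 between the brain maps and 0 in the others.

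Values follow in the order wild-type forelimb, forebrain, midhindbrain boundary, stop-cassette forelimb. The mean inside became 1.03, 1.01, 1.04 and 1.09 with raw counts, and 0.966, 0.962, 0.932 and 0.983 with edges 1 bin narrower. From 50 kb on it moved to 0.993 in stop-cassette forelimb and 0.920 in midhindbrain boundary, and with distance means outside the interval to 0.921 in midhindbrain boundary. The corner was 0.764, 0.688, 0.768 and 0.872 with raw counts; 1.00, 0.998, 1.03 and 1.01 with the interval's distance means, which is largely built in since 15 of its 25 bin pairs are the interval's only ones at their distance; 0.638, 0.552, 0.614 and 0.680 with 3 bins; and 0.805, 0.730, 0.774 and 0.885 with narrower edges. The lowest insulation was -0.27, -0.28, -0.16 and -0.18 with raw counts, at 123300001 except in stop-cassette forelimb (123170001). It was -0.27, -0.32, -0.31 and -0.21 with the 100 kb square, and -0.39, -0.44, -0.37 and -0.36 with 30 kb, at 123120001 except in stop-cassette forelimb (123320001). Correlations rose to 0.965 (forelimb and forebrain), 0.963 (forelimb and midhindbrain boundary), 0.955 (forelimb maps), 0.970 (brain maps), 0.940 and 0.935 (stop-cassette with forebrain and midhindbrain boundary) with raw counts and to 0.951, 0.918, 0.866, 0.953, 0.812 and 0.741 with 20 kb bins.

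Blocks called numbered 2 between the forelimb maps with the interval's distance means, and with 2 segments 2 between the forelimb maps, 3 between the brain maps and 1 between forelimb and forebrain, out of 3. Shares over the region's blocks were not computed for these settings. Several small block differences changed sign. With raw counts, left-middle became 0.040 between the forelimb maps and -0.030 for forelimb against midhindbrain boundary, whose middle-middle became -0.093. For midhindbrain boundary against forebrain, left-right, middle-middle and middle-right became 0.061, 0.029 and 0.048. With the interval's distance means, left-right became -0.034 against forebrain and -0.031 against midhindbrain boundary for forelimb, left-middle became -0.0013 against midhindbrain boundary, and middle-right became 0.032 between the brain maps. The cause of these shifts was not tested. Depth limits single pairs most beyond 300 kb and at bin 123100001.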
